A study of Mus musculus with 6 samples.

Results

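The whey and other secreted milk proteins described here are the secreted non-casein proteins Wap, Glycam1, Ltf, Wfdc18, Spp1 and Cel. The members were all probe sets annotated to one of these 6 symbols alone, which gave 5 genes of the 18193 that had a probe set, out of 45101 probe sets on the array. Wap, Glycam1, Ltf, Wfdc18 and Cel had 1 probe set each, and no probe set was annotated to Spp1 in the table used, so Spp1 was not analysed here. RNA from whole mammary glands of 3 Elf5 KO and 3 wild type mice was measured on 6 one-colour arrays, 1 per mouse. The sample labels place all 6 glands at pregnancy day 17, whereas the series' own design text speaks of the onset of lactation. The Elf5 allele, any promoter or Cre that drives its deletion, the strain and the age are not stated in the labels used.

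In lactating mice, secretory luminal cells make a few very abundant transcripts whose products leave the cell in the watery phase of milk. Prolactin induces many of them through the transcription factor Stat5, and Elf5, an ETS factor of the luminal lineage, is needed for the alveolar cells that make them. Wap, whey acidic protein, is a major whey protein of mouse milk. Wfdc18 is a small relative of Wap that carries the same disulfide-core (WAP) domain. Glycam1 is a mucin-like glycoprotein of milk, known also as a ligand of L-selectin on lymph node vessels. Ltf, lactoferrin, is an iron-binding antimicrobial protein of the transferrin family, made also in the granules of neutrophils. Cel is the bile-salt activated lipase, which pancreatic acinar cells make as well and which helps the newborn digest milk fat.

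The arrays differed in ways that touch every value below. Elf5 itself read 5616, 4361 and 3128 in Elf5 KO arrays 1, 2 and 3, against 12011, 8044 and 7244 in wild type arrays 1, 2 and 3, so the groups did not overlap. The Elf5 KO mean was 48.0% of the wild type mean, and the difference of log2(signal + 16), -1.06 ± 0.31 (SE), did not pass over all probe sets (limma adjusted p = 0.174). Where this probe set lies relative to the deleted part of the gene is not stated, so the remaining signal is only a partial check of the labels. Control probe sets at the 3′ and 5′ ends of a transcript give a 3′ over 5′ ratio, which rises when RNA is degraded. For Gapdh it was 0.802, 3.89 and 13.6 in Elf5 KO arrays 1, 2 and 3 and 0.833 to 1.09 in wild type. For Actb, the beta-actin gene, it was 1.58, 1.87 and 21.0 in Elf5 KO arrays 1, 2 and 3 and 1.20 to 2.04 in wild type. Elf5 KO array 2 thus lay above wild type by Gapdh but within the wild type range by Actb. The highest signal of an array was 12518 to 17018 in Elf5 KO and 13884 to 38413 in wild type. Markers of luminal epithelium were present in all arrays: Krt8, Krt18, Krt19, Epcam and Cdh1 summed to 12282 to 20266 in Elf5 KO and 11630 to 16344 in wild type. Summed signals of fibroblast, adipocyte, macrophage and neutrophil markers were higher in Elf5 KO without overlap. The 7 fibroblast markers summed to 20584 to 35069 in Elf5 KO and 11625 to 18681 in wild type, the 5 adipocyte markers to 23692 to 34029 in Elf5 KO and 17609 to 20535 in wild type, and the 8 macrophage markers to 4643 to 8017 in Elf5 KO and 2564 to 3686 in wild type. All 7, all 5 and 6 of the 8 had a higher mean in Elf5 KO. The 10 neutrophil markers with a probe set summed to 734 to 1226 in Elf5 KO and 375 to 515 in wild type. Of the 8 neutrophil markers tested, 5 had a higher mean, and without S100a8 and S100a9 the sums overlapped, as given below. None of the markers of these cell types passed over all probe sets, and their part in the differences of the secreted proteins was not tested. In these whole glands, fewer cells of a type and less RNA per cell cannot be told apart.

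The 5 secreted milk proteins had lower mean signals in Elf5 KO glands than in wild type glands, and none of the 5 differences passed the test. Cel differed most, at 27.6% of the wild type mean, and Ltf stood at 49.6%. Wap, Glycam1 and Wfdc18 stood at 64.9%, 58.8% and 58.5%. A mean below that of wild type was the case for 55.4% of all 27024 probe sets tested. In each of the 5 genes at least 1 Elf5 KO array lay above the dimmest wild type array, whereas the groups were apart for 24.6% of all probe sets tested.

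Wap read 9611, 9590 and 6506 in Elf5 KO arrays 1, 2 and 3, against 20172, 12607 and 6851 in wild type arrays 1, 2 and 3. Elf5 KO array 3 was the lowest of all, but wild type array 3 lay below the other two Elf5 KO arrays, and the wild type arrays alone spanned 2.94-fold. Wap averaged 8569 ± 1787 in Elf5 KO and 13210 ± 6681 in wild type (SD, n = 3 each). The difference of log2(signal + 16), the scale of all differences below, was -0.51 ± 0.38 (SE, 95% interval -1.37 to 0.35; limma adjusted p = 0.470).

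Glycam1 read 14148, 12617 and 9105 in Elf5 KO arrays 1, 2 and 3, against 31981, 18518 and 10544 in wild type arrays 1, 2 and 3. As for Wap, wild type array 3 fell below Elf5 KO arrays 1 and 2, so the spread within wild type was larger than the gap between the groups. Its log2 difference was -0.65 ± 0.38 (SE, 95% interval -1.51 to 0.22; limma adjusted p = 0.376). Glycam1 reached 83.1%, 96.8% and 72.7% of the highest signal of Elf5 KO arrays 1, 2 and 3, against 83.3%, 76.4% and 75.9% in wild type arrays 1, 2 and 3. It thus lay close to the upper end of the signal range in both genotypes, and whether signals there were compressed was not tested.

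Wfdc18 read 14040, 11930 and 8658 in Elf5 KO arrays 1, 2 and 3, against 30521, 18434 and 10208 in wild type arrays 1, 2 and 3. Its order over the 6 arrays was that of Glycam1, with the same overlap. The log2 difference was -0.66 ± 0.38 (SE, 95% interval -1.53 to 0.20; limma adjusted p = 0.369). The suffix of this probe set marks probes that may also match transcripts of other genes, so its signal cannot be given to Wfdc18 alone with certainty.

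Ltf read 7222, 3115 and 2200 in Elf5 KO arrays 1, 2 and 3, against 13786, 6380 and 5091 in wild type arrays 1, 2 and 3. Elf5 KO array 1 lay within the wild type range, and arrays 2 and 3 lay below all 3 wild type arrays. Ltf averaged 4179 ± 2675 in Elf5 KO and 8419 ± 4693 in wild type (SD, n = 3 each). The log2 difference was -1.06 ± 0.49 (SE, 95% interval -2.17 to 0.06; limma adjusted p = 0.298).

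Cel, the lipase, read 8586, 1029 and 651 in Elf5 KO arrays 1, 2 and 3, against 19477, 9812 and 7914 in wild type arrays 1, 2 and 3. Elf5 KO array 1 lay above wild type array 3, while the signals of Elf5 KO arrays 2 and 3 were far below every wild type signal. The 3 Elf5 KO signals spanned 13.2-fold, against 2.46-fold in wild type. Cel averaged 3422 ± 4476 in Elf5 KO and 12401 ± 6201 in wild type (SD, n = 3 each). The log2 difference was -2.66 ± 0.83 (SE, 95% interval -4.54 to -0.79), with an unadjusted p of 0.0106 in limma and an adjusted p of 0.189, and it lay among the lowest 0.148% of all differences. Two-sided exact permutation tests gave p = 0.2 for Cel, 0.4 for Wap and 0.3 for each of Glycam1, Ltf and Wfdc18, where 3 against 3 arrays allow no p under 0.1.

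**Figure D1:**
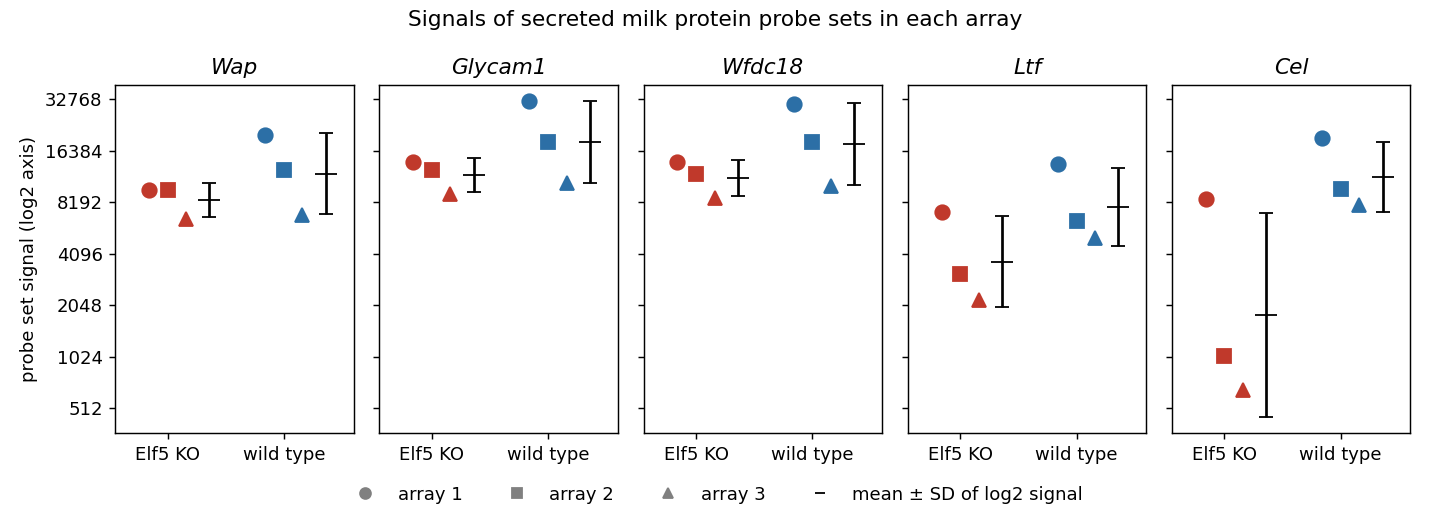
Probe set signal (log2 axis) of each of the 5 genes in Elf5 KO (red) and wild type (blue) arrays, with marker shapes for array numbers and black bars for the mean ± SD of log2 signal (n = 3). The groups overlap in every panel, and Elf5 KO arrays 2 and 3 stand far below the others for Cel, at 1029 and 651.

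The Cel and Ltf differences were uneven among the Elf5 KO arrays. Against the wild type mean, Cel differed by -0.42 in Elf5 KO array 1, the array with a Gapdh ratio of 0.802, and by -3.46 and -4.11 in arrays 2 and 3. Ltf differed by -0.08 in array 1, and by -1.29 and -1.79 in arrays 2 and 3. The corresponding values were -0.32, -0.33 and -0.89 for Wap, -0.38, -0.55 and -1.01 for Glycam1, and -0.35, -0.59 and -1.05 for Wfdc18. Against the wild type mean, the largest shortfall of all 5 genes was thus in Elf5 KO array 3, the one with the highest Gapdh ratio, whereas within same-numbered arrays, given below, Wap, Glycam1 and Wfdc18 had their smallest shortfall in number 3. With the log2 Gapdh ratio as a covariate the Cel difference was -0.97 ± 0.59 (SE) and the Ltf difference -0.32 ± 0.51 (SE), with limma adjusted p = 0.896 and 0.994. Without Elf5 KO array 1, Cel fell by 3.78 ± 0.44 on the log2 scale (SE, limma adjusted p = 0.0358), the only one of the 5 to pass, and 1.54% of all probe sets were called lower and 1.13% higher there. The Elf5 KO arrays left in that fit, 2 and 3, had Gapdh ratios of 3.89 and 13.6 and Actb ratios of 1.87 and 21.0. The controls disagreed on array 2, and RNA quality and genotype could not be told apart.

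The differences of Wap, Glycam1 and Wfdc18 depended on how the arrays were scaled. After quantile normalization, which gives all arrays the same distribution, they differed by -0.04, -0.05 and -0.08, and Ltf and Cel by -0.85 and -2.44. With the hybridisation controls made equal over the arrays, Wap was higher in Elf5 KO by 0.09, and Glycam1 and Wfdc18 differed by -0.05 and -0.06. Under that scaling the median difference of all probe sets moved to 0.40 from -0.09, Ltf differed by -0.46, and Cel fell by 2.06 (SE 0.57, limma adjusted p = 0.0317), where 0.152% of all probe sets were called lower and 1.27% higher. With 5 luminal genes (Krt8, Krt18, Krt19, Epcam and Cdh1) made equal instead, the differences were -0.81 for Wap, -0.94 for Glycam1, -0.96 for Wfdc18, -1.35 for Ltf and -2.95 for Cel, and the median of all probe sets was -0.34. None of the 5 passed under this last scaling.

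**Figure D2:**
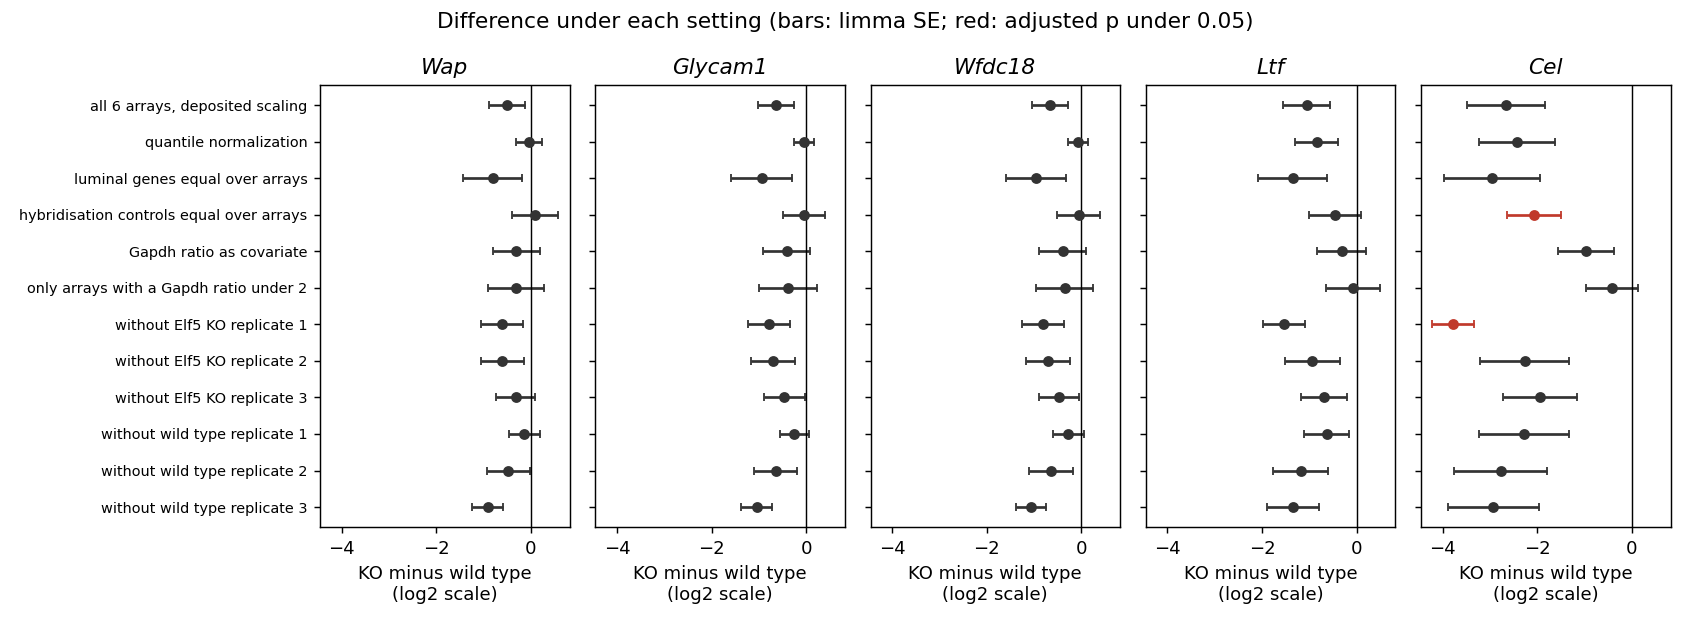
Difference of log2(signal + 16), Elf5 KO minus wild type, for each gene under 12 settings, with limma standard errors as bars and red for an adjusted p under 0.05. Wap, Glycam1 and Wfdc18 move to 0.09 to -0.08 under quantile normalization and the hybridisation controls, whereas Cel runs from -0.42 to -3.78.

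Deviations from the group means were correlated between same-numbered arrays (0.39, 0.27 and 0.25 over all probe sets tested). Elf5 KO array 2 and wild type array 3 correlated at 0.21. The labels do not say that the numbers pair the arrays, and so few arrays cannot settle it. With the pairing taken as an assumption, the differences were also taken within same-numbered arrays. In arrays numbered 1, 2 and 3, Wap differed by -1.07, -0.39 and -0.07. Glycam1 differed by -1.18, -0.55 and -0.21, and Wfdc18 by -1.12, -0.63 and -0.24. Ltf was nearly even, at -0.93, -1.03 and -1.20, and Cel differed by -1.18, -3.23 and -3.57. Every gene was lower in Elf5 KO in 3 of 3 pairs, but the share of all probe sets lower in 3 of 3 pairs was not taken. A limma fit that kept the replicate number as a block over all probe sets called none of the 5, with adjusted p = 0.0619 for Ltf and for Cel, 0.105 for Wfdc18, 0.116 for Glycam1 and 0.185 for Wap, and it called 0% of all probe sets in either direction. The same blocked fit on 1 probe set per gene, added after the data had been seen, had fewer tests to adjust for. Its unadjusted limma p differed as well. For Cel it was 0.000208, against 0.000563 over all probe sets, and for Ltf 0.000374, against 0.000516. In the fit on 1 probe set per gene Cel fell (adjusted p = 0.0149) and Ltf fell (adjusted p = 0.0176), while Wfdc18 (0.0562), Glycam1 (0.0673) and Wap (0.135) did not pass. It called 4.43% of 10917 genes lower and 7.57% higher. Elf5 itself fell in that fit (adjusted p = 0.0167). Of the markers it tested, 4 of 7 for fibroblasts, 2 of 5 for adipocytes, 4 of 7 for macrophages and 3 of 5 for skeletal muscle rose. For neutrophils 2 of 4 rose, for lymph node 1 of 5, for luminal epithelium 1 of 5 (Cdh1, adjusted p = 0.0450) and for myoepithelium 0 of 6. None of the markers fell.

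**Figure D3:**
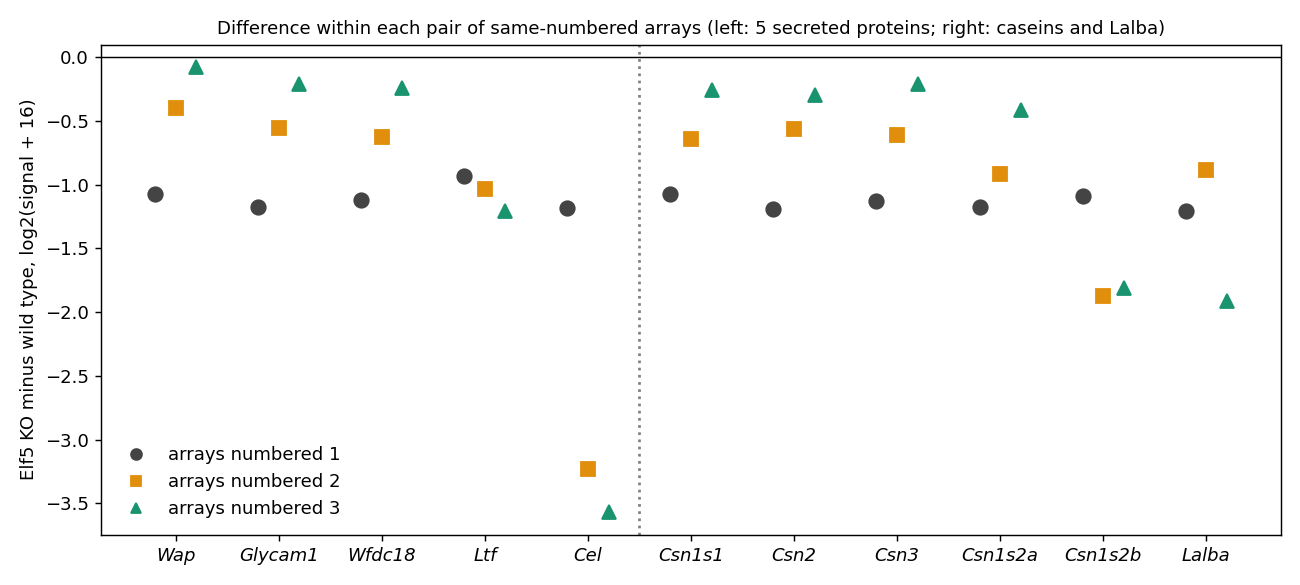
Difference of log2(signal + 16), Elf5 KO minus wild type, within arrays numbered 1 (circles), 2 (squares) and 3 (triangles), for the 5 secreted proteins and for the caseins and Lalba. Wap, Glycam1, Wfdc18 and most caseins lie nearest to 0 in arrays numbered 3, whereas Cel lies at -3.57 there.

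Wap, Glycam1 and Wfdc18 moved almost as a unit over the 6 arrays, and Cel followed them less closely. The Pearson correlation of log2(signal + 16) was 0.999 between Glycam1 and Wfdc18, 0.991 between Wap and Glycam1, and 0.988 between Wap and Wfdc18. Cel correlated at 0.946 with Ltf, 0.751 with Wfdc18, 0.729 with Glycam1 and 0.649 with Wap. These are descriptions over 6 arrays whose points share scaling and RNA quality. Of the 10 ratios between any 2 of the 5 genes within an array, the ones that set Cel against the others differed most between the groups. The log2 ratio of Ltf to Cel was 1.02 ± 1.10 in Elf5 KO and -0.58 ± 0.07 in wild type (SD, n = 3 each), a difference of 1.61 without overlap (exact permutation p = 0.1, two-sided, adjusted p = 0.333 over the 10 ratios). The log2 ratio of Wap to Wfdc18 differed by 0.15, also without overlap (exact permutation p = 0.1, adjusted p = 0.333). For Wap and Glycam1 over Cel the differences were 2.15 and 2.01 (exact permutation p = 0.2 each, adjusted p = 0.333), so an unequal change was not shown.

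The transcripts most like each gene over the 6 arrays were named by their correlation. Glycam1 was followed most closely by the caseins Csn3 (Pearson r = 0.999) and Csn2 (r = 0.999), and Wfdc18 by Csn3 (r = 1.000) and Glycam1. Wap was followed by Pllp (r = 0.992), Glycam1 and Csn2 (r = 0.990). The nearest to Cel were Epn2 (r = 0.999), Mospd3 (r = 0.997) and Saa2, a serum amyloid protein (r = 0.997). Saa2 read 3713, 1281 and 974 in Elf5 KO arrays 1, 2 and 3, against 5272, 3585 and 3110 in wild type arrays 1, 2 and 3, with the same high Elf5 KO array 1 as Cel. The nearest to Ltf were Plagl2 (r = 0.997), Arfgap2 (r = 0.996) and Gna15 (r = 0.996). Pllp and Plagl2 were dim, at most 93.0 and 54.8 in any array.

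The promoters of the genes that moved together and of Cel are shown to let their sequences be compared. They come from RefSeq on GRCm38.p6 and run from 250 bases before the annotated start to 50 after it, read 5′ to 3′ on the gene's strand. The Wap promoter lies at chr11:6638600-6638899 (minus strand), that of Glycam1 at chr15:103565032-103565331 (minus strand), that of Wfdc18 at chr11:83708754-83709053 (plus strand) and that of Cel at chr2:28563354-28563653 (minus strand). Capitals mark the letters GGAAG, an ETS-type core, on either strand (CTTCC on the printed strand when reversed), and the Stat5-type palindrome TTCNNNGAA.
Wap: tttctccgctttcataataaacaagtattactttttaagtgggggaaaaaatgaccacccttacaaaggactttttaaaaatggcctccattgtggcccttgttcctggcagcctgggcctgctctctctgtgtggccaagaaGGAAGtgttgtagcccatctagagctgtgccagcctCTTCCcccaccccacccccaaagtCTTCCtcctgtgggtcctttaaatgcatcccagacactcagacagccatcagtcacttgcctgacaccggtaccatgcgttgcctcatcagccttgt
Glycam1: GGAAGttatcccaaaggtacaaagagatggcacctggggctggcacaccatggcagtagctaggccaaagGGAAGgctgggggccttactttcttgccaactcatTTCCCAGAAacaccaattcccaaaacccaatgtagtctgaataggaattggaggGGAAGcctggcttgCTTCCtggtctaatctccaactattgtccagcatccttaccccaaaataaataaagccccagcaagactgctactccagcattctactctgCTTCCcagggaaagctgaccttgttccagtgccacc
Wfdc18: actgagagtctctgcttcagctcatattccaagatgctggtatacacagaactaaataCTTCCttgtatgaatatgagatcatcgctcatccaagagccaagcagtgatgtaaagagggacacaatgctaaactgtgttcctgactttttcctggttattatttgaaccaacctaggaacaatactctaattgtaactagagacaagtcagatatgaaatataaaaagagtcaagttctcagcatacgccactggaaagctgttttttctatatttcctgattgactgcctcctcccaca
Cel: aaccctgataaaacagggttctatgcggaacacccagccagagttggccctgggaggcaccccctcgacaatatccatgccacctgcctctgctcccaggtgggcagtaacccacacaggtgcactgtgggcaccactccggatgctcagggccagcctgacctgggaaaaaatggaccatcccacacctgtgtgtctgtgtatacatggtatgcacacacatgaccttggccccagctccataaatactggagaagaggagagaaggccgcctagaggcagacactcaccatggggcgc

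GGAAG occurred 3 times in the Wap window, 5 times in that of Glycam1, 1 time in that of Wfdc18 and 2 times in that of Ltf, and the letters are not in the Cel window. On the printed strand the Wap matches began 107, 71 and 47 bases before the start. TTCNNNGAA was matched 1 time, in Glycam1, as TTCCCAGAA beginning 145 bases before the start. Of 32817 promoter windows of the same length, 71.4% held GGAAG and 8.29% held TTCNNNGAA, searched on both strands. The 2 motifs did not overlap at any of these places. A match here is a match of letters only, and binding was not measured.

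The caseins and Lalba, the other abundant products of the same cells, lay close to the secreted proteins. All 6 had a lower mean in Elf5 KO, none passed over all probe sets, and their median log2 difference was -0.76, against -0.09 over all probe sets tested (-0.37 and -0.02 in the 4 arrays with a Gapdh ratio under 2). Csn1s2b differed by -1.59 ± 0.52 and Csn1s2a by -0.83 ± 0.36 (SE). Lalba stood at 44.3% of the wild type mean and differed by -1.33 ± 0.66 (SE, limma adjusted p = 0.319). Csn1s2b read 14184, 5203 and 3383 in Elf5 KO arrays 1, 2 and 3, against 30149, 19049 and 11893 in wild type arrays 1, 2 and 3, with the same high array 1 among the Elf5 KO arrays as Cel. In the blocked fit on 1 probe set per gene 4 of the 6 fell, where 4.43% of all genes were called lower.

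Among relatives of Wap and Wfdc18 and other protease inhibitors, 13 of 24 listed genes were tested, 10 had a lower mean in Elf5 KO and none passed (median -0.47). The largest differences went both ways. Wfdc3, another WAP-domain gene, read 2007, 652 and 300 in Elf5 KO arrays 1, 2 and 3, against 6744, 3752 and 3884 in wild type arrays 1, 2 and 3. Its difference was -2.62 ± 0.60 (SE, limma adjusted p = 0.144), and -1.20 with Elf5 KO array 1 alone against wild type. Wfdc21 read 418, 158 and 318 in Elf5 KO arrays 1, 2 and 3, against 102, 53.6 and 67.9 in wild type arrays 1, 2 and 3, a difference of 1.73 ± 0.41 (SE, limma adjusted p = 0.144). For both genes the groups were apart, as for 6 of the 13, against 24.6% of all probe sets. In the blocked fit on 1 probe set per gene, Wfdc3 fell and Wfdc21 rose (adjusted p = 0.0145 each).

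Of 21 tested defence and other proteins of milk, 16 had a lower mean in Elf5 KO and none passed (median -0.95, and -0.39 in the arrays with a Gapdh ratio under 2). Clu, the chaperone clusterin, differed by -0.95 ± 0.23 (SE, limma adjusted p = 0.145) and by -0.80 with Elf5 KO array 1 alone. Lyz1, a lysozyme made by myeloid cells too, differed by 1.22 ± 0.31 (SE, limma adjusted p = 0.154). The blocked fit on 1 probe set per gene tested 20 of these genes and called 12 lower and 4 higher, where 4.43% of all genes were called lower and 7.57% higher. Neutrophils make Ltf too, and 8 of 11 listed neutrophil markers were tested: 5 had a higher and 3 a lower mean in Elf5 KO, and none passed over all probe sets. The 10 with a probe set summed to 734 to 1226 in Elf5 KO and 375 to 515 in wild type. S100a8 read 417.8, 289.9 and 379.7 in Elf5 KO arrays 1, 2 and 3, against 79.3, 133.5 and 105.4 in wild type arrays 1, 2 and 3, and S100a9 was likewise higher in Elf5 KO without overlap. Without S100a8 and S100a9 the other 8 summed to 136.7 to 527.6 in Elf5 KO and 206.9 to 394.5 in wild type, so the groups overlapped. The granule markers Mpo, Elane and Camp read at most 64.6, 63.1 and 50.7 in any array. Ngp, another granule marker, read 210.1, 81.2 and 25.1 in Elf5 KO arrays 1, 2 and 3, against 117.8, 109.6 and 12.6 in wild type arrays 1, 2 and 3. The part of neutrophils in the Ltf difference was not tested.

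Iron proteins beside Ltf showed both directions, with 6 of 10 lower in Elf5 KO and none passing (median -0.52). The ferroxidase Hephl1 differed by -1.81 ± 0.38 and its relative Heph by 1.71 ± 0.42 (SE), with limma adjusted p = 0.129 and 0.145. Among other lipases 8 of 12 were lower and none passed (median -0.25). Ces1d, a carboxylesterase of fat cells, differed by 1.30 ± 0.27 and the phospholipase Liph by -1.62 ± 0.47 (SE), with limma adjusted p = 0.129 and 0.174. Of 7 listed markers of pancreatic acinar cells, which make Cel too, 4 had a probe set and summed to 15.7 to 42.9 in Elf5 KO and 27.7 to 179.6 in wild type. Only Ctrb1 was tested: it read 8.6, 18.1 and 3.2 in Elf5 KO arrays 1, 2 and 3, against 164.7, 7.9 and 6.8 in wild type arrays 1, 2 and 3, and did not pass (-0.87 ± 0.73, SE, limma adjusted p = 0.514). Ctrb1 was thus high in wild type array 1 alone, and it passed the filter signal of 23.4 only through that value. Cel was highest in that array too, but so were Wap, Glycam1, Wfdc18 and Ltf. Cela2a, below the filter, ran otherwise. It read 24.0, 21.2 and 8.4 in Elf5 KO arrays 1, 2 and 3, against 3.9, 14.9 and 15.1 in wild type arrays 1, 2 and 3. Cpa1 and Cpb1 read at most 8.4 and 17.4 in any array, and the part of acinar cells in the Cel difference was not tested.

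Genes around Glycam1, the selectin ligands and the enzymes that build their sugars, had 9 of 15 members with a lower mean and none that passed (median -0.30). Fut4, a fucosyltransferase, read 76.4, 67.9 and 84.8 in Elf5 KO arrays 1, 2 and 3, against 218.4, 275.4 and 249.1 in wild type arrays 1, 2 and 3. Its difference of -1.51 ± 0.29 (SE) missed the threshold over all probe sets (limma adjusted p = 0.121) and fell on 1 probe set per gene (adjusted p = 0.0440), where 0.0733% of genes were called lower. The sialyltransferase St3gal6 differed by 1.39 ± 0.41 (SE, limma adjusted p = 0.175). Lymph node vessels carry Glycam1 as well, and 7 of 12 listed lymph node markers were tested: 6 had a higher mean in Elf5 KO and none passed over all probe sets. The 8 with a probe set summed to 693 to 1185 in Elf5 KO and 575 to 697 in wild type. Ccr7, Ms4a1 and Cd3g were higher in Elf5 KO without overlap, as were 11.9% of all probe sets tested, whereas Cd79a, Cd3e and Cr2 overlapped. Ccr7 read 64.3, 29.2 and 133.1 in Elf5 KO arrays 1, 2 and 3, against 26.5, 2.6 and 2.8 in wild type arrays 1, 2 and 3. Its wild type mean of 10.6 lies below the filter signal of 23.4, so Ccr7 was tested only through its Elf5 KO signals. The vessel marker Madcam1 read 137 to 217 in Elf5 KO and 197 to 287 in wild type. Chst4, another, stayed below the filter, at 5.8 to 17.4 in Elf5 KO and 20.6 to 34.6 in wild type. The part of lymph node tissue in the Glycam1 difference was not tested.

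Receptors and partners of osteopontin, the product of Spp1, were measured although Spp1 was not. Of 15 tested, 8 had a lower mean and none passed (median -0.14). Itgb3, an integrin subunit that binds osteopontin, read 66.6, 89.6 and 248 in Elf5 KO arrays 1, 2 and 3, against 5.5, 8.6 and 2.8 in wild type arrays 1, 2 and 3. The wild type signals lie below the filter signal of 23.4, so Itgb3 was tested through its Elf5 KO signals alone, and the size of its difference depends on the pseudocount, at 4.22, 2.62 and 1.40 with 1, 16 and 64. It did not pass over all probe sets (limma adjusted p = 0.121). On 1 probe set per gene, where 1.02% of genes were called higher, its adjusted p was 0.0416, under the same limit. Mmp3, a protease that cleaves osteopontin, differed by 2.03 ± 0.45 (SE, limma adjusted p = 0.140). The part of macrophages, whose summed markers are given above, in these differences was not tested.

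Of 20 regulators of milk protein genes, 9 had a lower mean and 11 a higher one, with a median of 0.04, and none passed. Stat5a, the transcription factor downstream of the prolactin receptor, read 905, 676 and 288 in Elf5 KO arrays 1, 2 and 3, against 2444, 1654 and 1842 in wild type arrays 1, 2 and 3. It differed by -1.77 ± 0.43 and the kinase Akt1 by -2.11 ± 0.55 (SE), with limma adjusted p = 0.145 and 0.155. Both fell in the blocked fit on 1 probe set per gene, with adjusted p = 0.0199 and 0.0203. In the secretory machinery 21 of 24 members were lower (median -0.46), 11 without overlap between the groups (12.7% of all probe sets tested were lower without overlap), and none passed. Ssr4, a component of the translocon at the endoplasmic reticulum, differed by -1.36 ± 0.36 and Xbp1, a transcription factor of secretory capacity, by -0.81 ± 0.25 (SE), with limma adjusted p = 0.163 and 0.188. With Elf5 KO array 1 alone against wild type, Stat5a differed by -1.10, Akt1 by -0.94, Ssr4 by -0.72 and Xbp1 by -0.53.

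**Figure D4:**
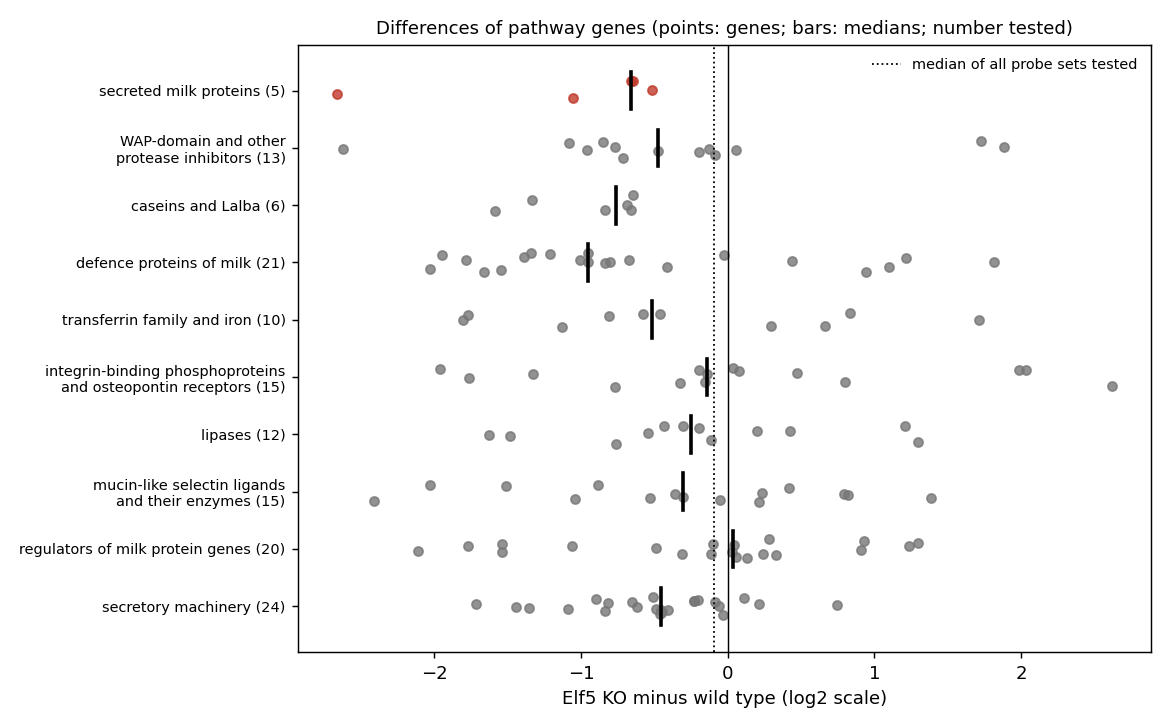
Difference of log2(signal + 16), Elf5 KO minus wild type, of each tested gene in 9 lists (grey) and of the 5 secreted proteins (red), with medians as black bars and the median of all probe sets tested, -0.09, as a dotted line. Defence proteins and caseins have the lowest medians of the 9 lists, at -0.95 and -0.76, and no point passed over all probe sets.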

How the data were processed

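The deposited table holds linear signal intensities, deposited by the authors. The submitters' processing notes name MAS5 and affy, without version, role or order. With 2% trimmed from either end, each array had a mean of 150.0. Probe sets were named through the platform annotation, and 34958 of 45101 had 1 gene. The 64 control probe sets and 18013 others with a mean signal below the 40th percentile (23.4) were dropped, and 27024 probe sets were tested. These were compared as log2(signal + 16) with limma 3.58.1 in R 4.3.3 (lmFit, eBayes with an intensity trend), with Benjamini-Hochberg adjustment over all of them and a threshold of 0.05. The fit called 0 of 27024 probe sets, with 4796 at an unadjusted p under 0.05, and a fit on 1 probe set per gene called 111 of 10917 genes higher and 8 lower. Standard errors and intervals come from limma, and arrays are limited in precision by their number.

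Groups and replicate numbers were read from the titles of the samples, where biological replicates are named. Same-numbered arrays correlated at 0.39, 0.27 and 0.25 in their deviations from group means, and the highest value between different numbers was 0.21. In the blocked fits the numbers were taken to pair the arrays, as an assumption that the labels do not state. The correlations come from the same data as the blocked fits, so they are no independent check of the pairing. The members and gene lists were chosen with earlier results of these data known. Beside the members, the text names the 3 genes most correlated with each member, the called genes or otherwise the 2 with the smallest p of each list, Csn2, Lalba, Elf5 and Stat5a; other names were chosen after their values were seen. A gene outside the members is given by its brightest probe set. Scalings, pseudocounts, filters, a trend-free fit, blocks and left-out arrays were tried.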

Additional observations from a re-analysis of the deposited data

How the results depend on the processing

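The 5 differences kept their sign under pseudocounts of 1 and 64, no filter, no trend, quantile normalization, equal luminal genes, 1 probe set per gene, the Gapdh covariate, the arrays with a Gapdh ratio under 2, the replicate block and each left-out array. The 1 reversal was Wap at 0.088 with equal hybridisation controls. That scaling called Cel (-2.06), so 1 of 5 members, and 6 list genes, against 0 in both counts with the deposited scaling. On 1 probe set per gene 2 of 123 list genes were called without a block, and 111 of all genes were called higher and 8 lower. With the replicate block on 1 probe set per gene Cel (-2.66) and Ltf (-1.06) passed, 2 of 5 members, and 53 of 123 list genes, where 826 of all 10917 genes were called higher and 484 lower. Leaving out 1 array at a time gave Cel differences of -3.78 (without Elf5 KO array 1) to -1.94 (without Elf5 KO array 3), Ltf differences of -1.54 (without Elf5 KO array 1) to -0.63, Wap of -0.92 to -0.14, Glycam1 of -1.05 to -0.25 and Wfdc18 of -1.07 to -0.28 (the last 3 lowest without wild type array 3, and all 4 nearest to 0 without wild type array 1), 0 to 1 members called and 0 to 21 list genes called; both upper counts are without Elf5 KO array 1. The replicate block on all probe sets changed no call (Cel -2.66, adjusted p = 0.0619). In the arrays with a Gapdh ratio under 2, which hold Elf5 KO array 1 alone, assumed to vary like wild type, Cel differed by -0.42, Ltf by -0.08, Wfdc18 by -0.35, Glycam1 by -0.38 and Wap by -0.32. The cause of these changes was not tested. Over all probe sets 343 were called higher and 41 lower with equal hybridisation controls, and 305 higher and 415 lower without Elf5 KO array 1.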

Other observations

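Antibacterial and immune proteins of milk other than Ltf are given here by genes chosen after their values were seen. Lpo, lactoperoxidase, read 1191, 284 and 147 in Elf5 KO arrays 1, 2 and 3, against 2035, 732 and 1198 in wild type arrays 1, 2 and 3. Elf5 KO array 1 lay among the wild type arrays and the other two lay below them, as for Cel and Ltf. Pigr, which carries secretory antibodies into milk, read 4307, 1614 and 3338 in Elf5 KO arrays 1, 2 and 3, against 14064, 5444 and 5472 in wild type arrays 1, 2 and 3, without overlap. Lpo differed by -1.66 ± 0.69 and Pigr by -1.39 ± 0.47 (SE), without passing over all probe sets (limma adjusted p = 0.263 and 0.211). Both fell in the blocked fit on 1 probe set per gene (adjusted p = 0.0387 and 0.0195). With Elf5 KO array 1 alone against wild type, Lpo differed by -0.03 and Pigr by -0.80.

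Wfdc12, another WAP-domain gene, ran against Wap and Wfdc18. It read 404, 1086 and 2260 in Elf5 KO arrays 1, 2 and 3, against 150, 338 and 339 in wild type arrays 1, 2 and 3, so all Elf5 KO signals lay above all wild type signals. The difference was 1.89 ± 0.60 (SE, limma adjusted p = 0.194), and 0.61 with Elf5 KO array 1 alone. Wfdc12 rose in the blocked fit on 1 probe set per gene (adjusted p = 0.0176). Its signal in the Elf5 KO arrays was highest in array 3, where Wap and Wfdc18 were lowest.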
